A study of Mus musculus with 13 samples.

Results

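Nucleic acid sensing in the nonhematopoietic thymus was described with 9 genes: the RNA helicases *Dhx58*, *Ifih1* and *Ddx58*, their adaptor *Mavs*, the endosomal receptor *Tlr3*, the nucleic acid receptors *Zbp1* and *Aim2*, and the double-stranded RNA-binding enzymes *Eif2ak2* and *Adar*. They were matched by mouse symbol among the 53379 genes of the count table, and all 9 were found and passed the filter on low counts. The genes were chosen with their response at day 1 known, and they were grouped by that comparison into 7 induced genes (*Dhx58*, *Ifih1*, *Ddx58*, *Zbp1*, *Tlr3*, *Eif2ak2* and *Adar*) and 2 flat genes (*Mavs* and *Aim2*). The difference between day 1 and steady state is therefore given as a description, without p-values.

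Bulk RNA-seq was performed on CD45- cells from the thymus of 2-month-old wild-type C57BL/6 mice. There were 4 libraries at steady state, which are labelled untreated and named as phosphate-buffered saline (PBS) controls of days 1, 4 and 7 in the count table, and 3 libraries each at days 1, 4 and 7 after a sublethal dose of total body irradiation (TBI). The CD45- fraction mixes epithelial cells (TECs), fibroblasts, endothelial cells and rarer stromal cells, so that in these bulk libraries fewer cells of a type and less RNA per cell cannot be told apart. The labels do not say whether each library came from 1 mouse, so p-values measure the spread between these libraries.

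Cells detect foreign or misplaced nucleic acids by where they lie and how they are built. In the cytosol, RIG-I (*Ddx58*) and MDA5 (*Ifih1*) bind double-stranded RNA and signal through MAVS on mitochondria, LGP2 (*Dhx58*) modulates both, and AIM2 binds double-stranded DNA and assembles an inflammasome, whereas TLR3 reads double-stranded RNA inside endosomes. ZBP1 binds left-handed nucleic acids and can start necroptosis, PKR (*Eif2ak2*) stops translation by phosphorylating eIF2α, and ADAR1 (*Adar*) edits double-stranded RNA so that it is no longer seen as foreign. Many of these genes are themselves targets of interferon, through interferon regulatory factors (IRFs) that bind repeats of GAAA in promoters.

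To show the sequence at the start of the genes, windows of 300 bases (250 before and 50 after each annotated start) were taken from RefSeq on GRCm38.p6. Windows were found for 7 of the 9 genes; *Dhx58* and *Zbp1* had none. The IRF core GAAANNGAAA, searched on both strands, was found in the windows of *Ifih1*, *Ddx58* and *Eif2ak2*, which are 3 of the 5 induced genes with a window, and not in those of *Tlr3*, *Adar*, *Mavs* or *Aim2*. It was found in 3.44% of all 32851 windows and in 3.99% of the 27025 genes they belong to. The 3 matches began at bases 33, 3 and 19, respectively, with the annotated start counted as base 1. They are shown because they are the only matches among the members. Each stretch of 30 bases is written 5′ to 3′ on the strand of its gene, which is the minus strand for all 3, with the match in capitals.
Ifih1, chr2:62646206-62646235: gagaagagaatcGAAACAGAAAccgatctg
Ddx58, chr4:40239804-40239833: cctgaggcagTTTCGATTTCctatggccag
Eif2ak2, chr17:78882535-78882564: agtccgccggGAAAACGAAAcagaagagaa
The match of *Ddx58* lies on the opposite strand and so appears as its reverse complement. The interferon-γ activation core TTCNNNGAA was found in the window of *Eif2ak2* and in 1 of the 3 windows of *Adar*, against 8.3% of all windows and 9.55% of genes. A match describes these letters and does not show that a factor binds there.

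Total counts ranged from 15721866 to 52056896 per library (median 44078906), and 19984 genes were tested. Counts are given as CPM (counts relative to the library total, after TMM scaling), and levels of different genes are compared as CPM per kilobase of exon. Markers of TECs, fibroblasts and endothelial cells were present in every group: summed CPM ranged from 557 to 3400 for 7 TEC genes, from 9075 to 44855 for 5 fibroblast genes and from 582 to 1059 for 4 endothelial genes. Thymocyte genes, which a CD45- fraction should lack, were also present and moved with time. Summed over 14 genes, none of them at 0 in any library, they ranged from 260 to 870 CPM at steady state, from 125 to 152 at day 1, from 25.0 to 39.5 at day 4 and from 237 to 5241 at day 7. The column names end in tags of unstated meaning that sort the libraries into 3 families, and 2 steady-state and 2 day 1 libraries fall in the family without a k3 or kk tag. Day 1 replicate 1 carries a kk tag, and no day 1 library carries a k3 tag. All day 7 libraries carry a k3 or kk tag, so that tag family and day are partly confounded.

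*Dhx58* (ENSMUSG00000017830, chr11:100694884-100704271 in GRCm38), which encodes the regulatory helicase LGP2 and modulates RIG-I and MDA5, had the largest difference of the 3 helicases at day 1. Its level was 20.6, 13.8, 18.9 and 13.9 CPM in the steady-state libraries, 281.1, 154.9 and 139.7 CPM at day 1, 33.0, 27.1 and 28.8 CPM at day 4, and 19.4, 17.3 and 19.5 CPM at day 7. All day 1 libraries lay above all others, the day 4 libraries lay above every steady-state and day 7 library, and day 7 overlapped steady state. The mean at day 1 was 192 ± 78 CPM (SD, n = 3) against 16.8 ± 3.5 CPM (SD, n = 4) at steady state, a log2 fold change of 3.51 with a standard error of 0.27. Of its exon bases, 4.31% are shared with the annotated antisense gene *Dhx58os*, whose reads could not be told apart without strand.

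*Ifih1* (ENSMUSG00000026896, chr2:62595798-62646255), the gene of MDA5, which senses long double-stranded RNA, followed the same course over a smaller range. It was at 46.5, 35.6, 48.1 and 38.5 CPM at steady state, 219.5, 128.1 and 120.4 CPM at day 1, 49.9, 57.2 and 52.5 CPM at day 4, and 32.3, 31.9 and 44.0 CPM at day 7. The day 1 libraries were the 3 highest, and the 3 day 4 libraries came next. The log2 fold change at day 1 was 1.89 (SE 0.24).

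*Ddx58* (ENSMUSG00000040296, chr4:40203773-40239828), the gene of RIG-I, was the most abundant of the 3 helicases per kilobase before injury. It was at 98.6, 89.5, 107.4 and 101.9 CPM at steady state, 532.5, 323.0 and 272.0 CPM at day 1, 109.6, 107.3 and 99.5 CPM at day 4, and 96.8, 87.8 and 96.9 CPM at day 7. Day 1 stood apart, whereas day 4 and day 7 each overlapped steady state. The log2 fold change at day 1 was 1.92 (SE 0.22), close to that of *Ifih1*.

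*Mavs* (ENSMUSG00000037523, chr2:131234063-131248025), the adaptor that relays the signal of RIG-I and MDA5, did not share this course. Its level was 41.7, 67.4, 51.9 and 62.7 CPM at steady state, 61.4, 46.7 and 49.9 CPM at day 1, 59.7, 60.9 and 60.9 CPM at day 4, and 47.7, 44.5 and 47.3 CPM at day 7. All 3 time points overlapped steady state, and the day 1 libraries lay within its range. The log2 fold change at day 1 was -0.09 (SE 0.19), with a 95% interval of -0.51 to 0.33.

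*Tlr3* (ENSMUSG00000031639, chr8:45395665-45411080), the endosomal receptor for double-stranded RNA, was at 24.5, 35.9, 33.7 and 34.7 CPM at steady state, 217.9, 97.1 and 87.2 CPM at day 1, 33.5, 39.1 and 42.5 CPM at day 4, and 32.7, 30.4 and 27.7 CPM at day 7. It differed by a log2 fold change of 2.06 (SE 0.29) at day 1, and the other time points overlapped steady state. The day 1 libraries lay above all others, with 1 of them far above the other two. Of the exon bases of *Tlr3*, 7.32% are shared with *Gm45542*.

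*Zbp1* (ENSMUSG00000027514, chr2:173206612-173218923), whose product links nucleic acid binding to cell death kinases had the highest estimate of the 9 genes at day 1, with that of *Dhx58* next. It was at 33.3, 41.4, 33.0 and 35.3 CPM at steady state, 686.0, 373.9 and 303.7 CPM at day 1, 45.0, 55.4 and 43.0 CPM at day 4, and 42.2, 35.1 and 63.9 CPM at day 7. All day 1 libraries were far above the others, and day 4 lay just above steady state without overlap. The log2 fold change at day 1 was 3.67 (SE 0.30).

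*Aim2* (ENSMUSG00000037860, chr1:173350879-173466040), the cytosolic DNA sensor, was close to the lower end of what was tested, with 27 to 220 counts per library. It was at 2.5, 1.4, 2.2 and 1.3 CPM at steady state, 2.6, 1.9 and 2.3 CPM at day 1, 1.8, 1.6 and 2.0 CPM at day 4, and 1.2, 4.5 and 1.6 CPM at day 7. The groups overlapped throughout. The highest value came from day 7 replicate 2, which also had the highest thymocyte markers (5241 CPM summed over the 14 genes); their part in the level of *Aim2* was not tested. The log2 fold change at day 1 was 0.28 (SE 0.44), and its 95% interval of -0.68 to 1.23 was the widest of the 9 genes. Differences of either sign within this interval remain compatible with the data.

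The double-stranded RNA-binding enzymes were also higher at day 1. *Eif2ak2* (ENSMUSG00000024079, chr17:78852564-78882573), the gene of the translation-blocking kinase PKR, was at 31.5, 23.7, 30.5 and 34.9 CPM at steady state, 124.5, 88.6 and 70.4 CPM at day 1, 23.5, 23.3 and 17.6 CPM at day 4, and 19.1, 30.2 and 34.3 CPM at day 7. It was the only member whose day 4 libraries all lay below steady state, by a narrow margin (23.5 against 23.7 CPM). The same held for 8.22% of all genes. The log2 fold change at day 1 was 1.65 (SE 0.26).

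*Adar* (ENSMUSG00000027951, chr3:89715022-89753446), the gene of the editing enzyme ADAR1, was at 97.5, 87.8, 100.9 and 89.5 CPM at steady state, 352.8, 256.9 and 214.5 CPM at day 1, 126.5, 95.9 and 111.8 CPM at day 4, and 71.9, 84.1 and 98.0 CPM at day 7. Day 1 stood apart and the later groups overlapped steady state. Its log2 fold change of 1.55 (SE 0.20) was the smallest of the 7 induced genes, and that of *Aim2* (0.28) was the larger of the flat ones. Counts per gene do not separate the interferon-driven and constitutive isoforms of *Adar*, and 16.8% of its exon bases are shared with *Chrnb2*.

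**Figure D1:**
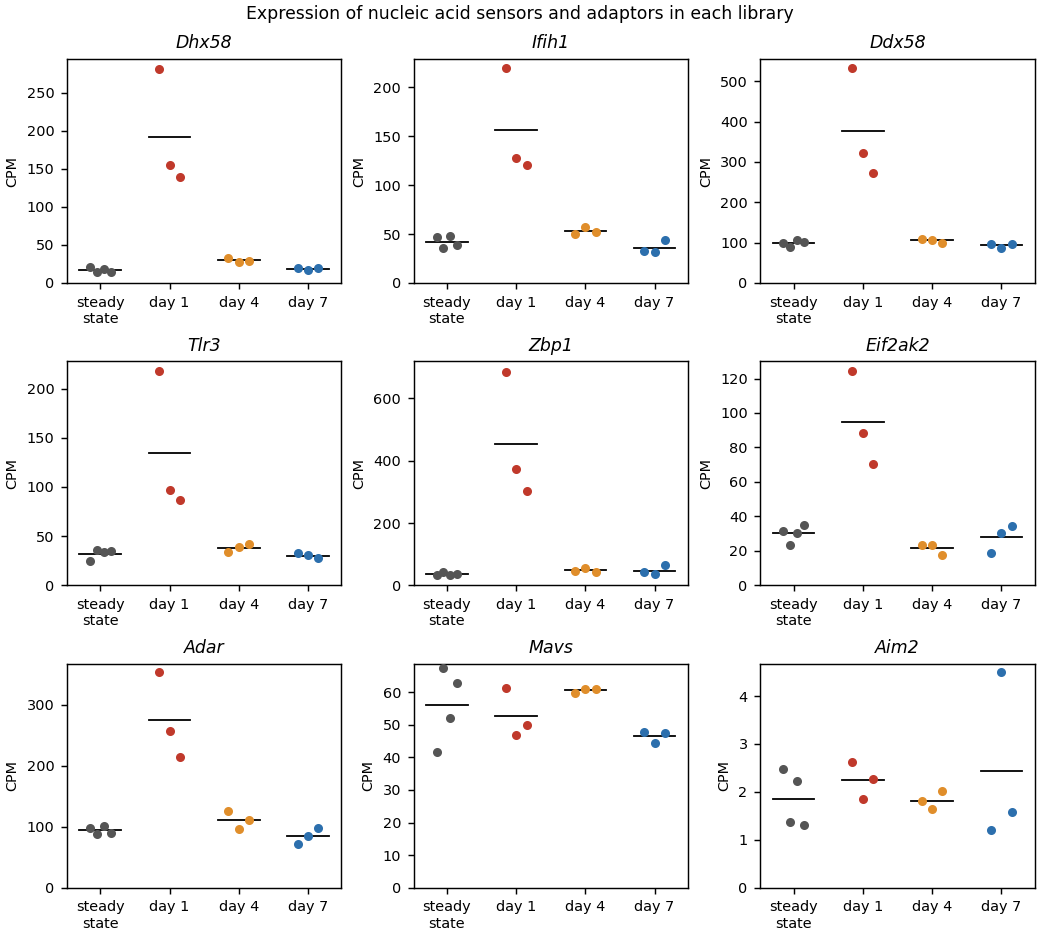
CPM of each of the 9 genes (vertical axis, from 0) in the 4 steady-state libraries and the 3 libraries of each day after TBI; points are libraries and bars are group means. The day 1 points of the 7 induced genes lie above all others, with day 1 replicate 1 highest, whereas those of *Mavs* and *Aim2* overlap steady state.

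In total, 7 of the 9 genes passed an adjusted p of 0.05 in edgeR as higher at day 1, which is the criterion that grouped them, against 1.68% of all genes tested. For the same 7 genes the libraries of both groups did not overlap, against 7.25% of all genes for higher values at day 1. Day 1 replicate 1 was the highest day 1 library for all 9 genes. Without it, the log2 fold changes at day 1 were lower, at 3.25 for *Zbp1*, 3.14 for *Dhx58*, 1.59 for *Ddx58*, 1.56 for *Ifih1*, 1.52 for *Tlr3*, 1.40 for *Eif2ak2* and 1.33 for *Adar*. Within the tag family without k3 or kk (2 libraries against 2), they were 3.40 for *Zbp1*, 2.95 for *Dhx58*, 1.71 for *Tlr3*, 1.58 for *Ddx58*, 1.44 for *Ifih1*, 1.40 for *Eif2ak2* and 1.30 for *Adar*. The split into 7 induced and 2 flat genes was kept in all 21 alternatives run for this comparison. The alternatives and the overlap of libraries rest on the libraries that grouped the genes. They describe how far the split depends on settings and are not independent support for it.

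Blood cells also carry these sensors, and markers of blood and stromal cells are given beside the difference at day 1. None of the 8 macrophage and dendritic cell markers passed the test at day 1 (edgeR, adjusted p of 0.05 or less), and their summed level was 65.7 to 113 CPM at day 1 against 48.7 to 143 CPM at steady state; 2 had an unadjusted p under 0.05, and DESeq2 called 2, *Siglech* (edgeR log2 fold change -3.42) and *Cd68* (1.24), named after their values were seen. None of the 4 neutrophil markers passed either, with 15.7 to 36.5 CPM at day 1 against 4.2 to 25.4 CPM at steady state, 1 with an unadjusted p under 0.05 and 0 called by DESeq2. All 14 thymocyte markers had lower estimates at day 1 and none passed in edgeR, although 12 had an unadjusted p under 0.05 and DESeq2 called 5. Of 4 B cell markers none passed (1 with an unadjusted p under 0.05, 0 called by DESeq2), and of 4 erythroid markers 2 fell. Of the stromal markers, none passed in edgeR: 0 of 7 TEC, 3 of 5 fibroblast and 1 of 4 endothelial markers had an unadjusted p under 0.05, and DESeq2 called 1 endothelial marker, *Kdr* (edgeR log2 fold change -1.18), named after its value was seen. Summed levels at day 1 and at steady state were 1320 to 2233 and 716 to 2682 CPM for TEC genes, 10427 to 23808 and 9075 to 44855 CPM for fibroblast genes, and 582 to 969 and 619 to 916 CPM for endothelial genes. The part of these cells in the levels of the sensors was not tested.

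**Figure D2:**
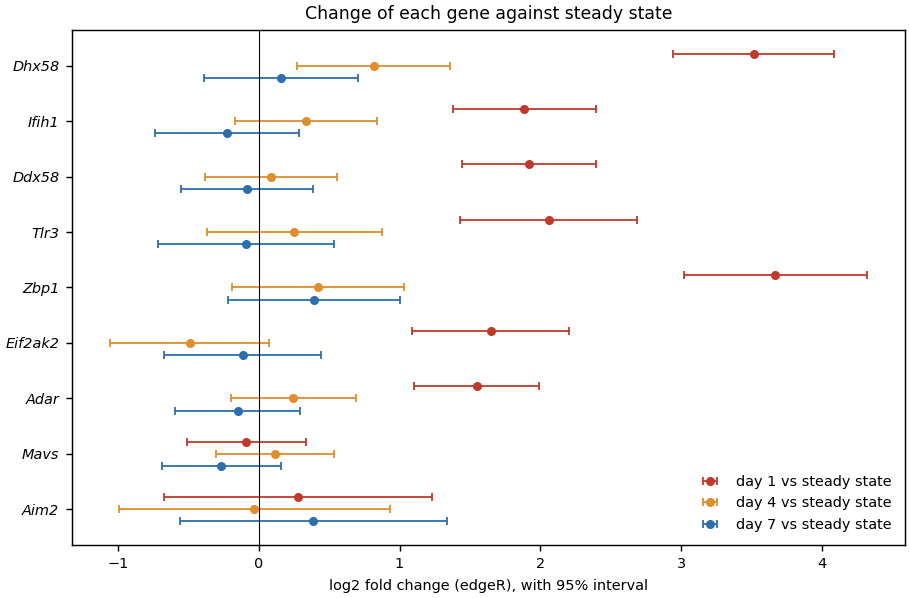
Log2 fold change of each gene against steady state (horizontal axis) at days 1, 4 and 7, with 95% intervals from the edgeR fit. At day 1 the intervals of the 7 induced genes start at 1.09 or higher, while at days 4 and 7 all intervals include 0 except that of *Dhx58* at day 4 (0.27 to 1.36).

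To compare levels between the genes, CPM was divided by exon length. At steady state, *Mavs* had the highest mean level per kilobase (16.7 ± 3.4 CPM per kilobase, SD, n = 4), followed by *Ddx58* (14.1), *Adar* (11.6), *Zbp1* (10.1), *Tlr3* (6.18), *Eif2ak2* (5.90), *Ifih1* (5.17), *Dhx58* (5.13) and *Aim2* (0.53). The libraries of *Mavs* and *Ddx58* overlapped, as did those of *Adar* and *Zbp1*, and the 4 genes from *Tlr3* to *Dhx58* overlapped each with the next. The adaptor was thus among the most abundant members and *Aim2* stood alone at the bottom.

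At day 1, *Zbp1* had the highest level per kilobase (129 ± 58 CPM per kilobase, SD, n = 3) without overlap with the next, and *Dhx58* (58.6) came next, after being last but one at steady state. *Ddx58* (53.3), *Adar* (33.8), *Tlr3* (25.7), *Ifih1* (19.1), *Eif2ak2* (18.5) and *Mavs* (15.7) followed, each overlapping its neighbor, and *Aim2* (0.64) was again last. By day 4 *Mavs* was first again (18.1 ± 0.2, n = 3) and did not overlap *Ddx58* (14.96), and *Dhx58* (9.05) was above *Tlr3* (7.36) without overlap. At day 7 *Mavs* (13.9), *Zbp1* (13.3) and *Ddx58* (13.3) overlapped at the top, and *Dhx58* (5.72) was within the range of *Tlr3* (5.81) and *Eif2ak2* (5.45).

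**Figure D3:**
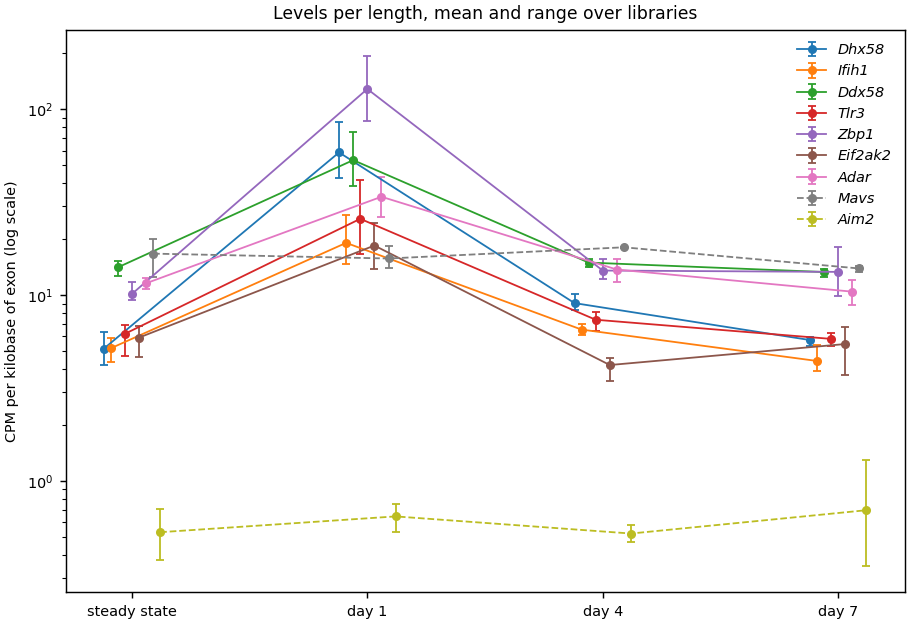
Mean level per kilobase of exon (vertical axis, CPM per kilobase on a log scale) in each group, with bars from the lowest to the highest library; dashed lines mark *Mavs* and *Aim2*. At day 1 the 7 induced genes have higher means than *Mavs*, which has the highest mean in the other groups.

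Ratios between members within a library do not depend on the scaling between libraries. The summed level per kilobase of the 3 helicases relative to that of *Mavs* was 2.08, 1.06, 1.73 and 1.25 at steady state, 10.3, 7.79 and 6.44 at day 1, 1.78, 1.68 and 1.61 at day 4, and 1.65, 1.63 and 1.77 at day 7. The mean ratio was 8.17 ± 1.94 (SD, n = 3) at day 1 against 1.53 ± 0.47 (SD, n = 4) at steady state, and later time points overlapped steady state. Among the helicases, *Dhx58* relative to *Ddx58* was 0.45, 0.33, 0.38 and 0.29 at steady state, 1.14, 1.03 and 1.11 at day 1, 0.65, 0.54 and 0.62 at day 4, and 0.43, 0.42 and 0.43 at day 7. This ratio was still above all steady-state libraries at day 4. In contrast, *Ifih1* relative to *Ddx58* was 0.37 ± 0.04 (SD, n = 4) at steady state and 0.36 ± 0.02 (SD, n = 3) at day 1, and these groups overlapped.

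**Figure D4:**
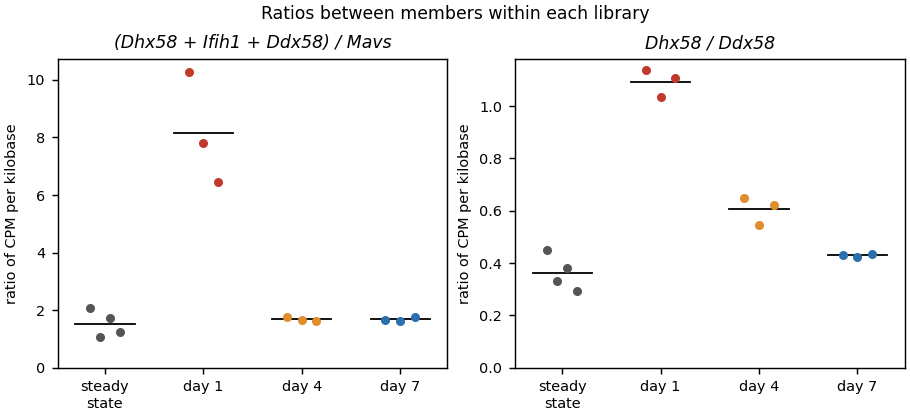
Ratios of levels per kilobase in each library: the sum of *Dhx58*, *Ifih1* and *Ddx58* over *Mavs*, and *Dhx58* over *Ddx58* (vertical axes, from 0); points are libraries and bars are group means. Both ratios are highest at day 1, and only that of *Dhx58* to *Ddx58* remains above all steady-state libraries at day 4 (0.54 to 0.65).

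By day 4 the induced genes were closer to steady state than to day 1. From day 1 to day 4 the log2 fold changes, given as a description because they rest on the day 1 libraries, were -3.25 for *Zbp1*, -2.70 for *Dhx58*, -2.14 for *Eif2ak2*, -1.83 for *Ddx58*, -1.80 for *Tlr3*, -1.55 for *Ifih1* and -1.30 for *Adar*. The flat genes differed by 0.20 (*Mavs*) and -0.31 (*Aim2*).

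Day 4 was then tested against steady state, a comparison that shares the steady-state libraries with the one at day 1. None of the 9 genes passed in edgeR, against 0.29% of all genes in either direction; 1 (*Dhx58*) had an unadjusted p under 0.05, and DESeq2 called 1, again *Dhx58*. For *Dhx58* the log2 fold change was 0.82 (SE 0.25, edgeR adjusted p = 0.22), and DESeq2 gave 0.89 (adjusted p = 0.045). Over all genes, DESeq2 called 267 higher and 378 lower at day 4. The adjusted p of *Dhx58* ranged from 0.045 to 0.61 over the 20 alternatives. The libraries of *Dhx58*, *Zbp1* and *Ifih1* lay above steady state without overlap (3 of 9, against 6.44% of all genes), although the log2 fold changes of *Zbp1* (0.42, adjusted p = 0.51) and *Ifih1* (0.34, adjusted p = 0.52) did not pass. Only *Eif2ak2* lay below without overlap (1 of 9, against 8.22% of all genes), with a log2 fold change of -0.49 (edgeR adjusted p = 0.43). The median over the 9 genes was 0.25, against -0.13 over all genes.

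At day 7, none of the 9 genes passed against steady state in edgeR, where 0.005% of all genes passed. None of the 9 had an unadjusted p under 0.05 in edgeR, and DESeq2 called 0 of them. Over all genes, DESeq2 called 699 lower, and no alternative called more than 568 higher. All 9 overlapped steady state, where 7.49% of all genes did not. The median over the 9 genes was -0.09, against 0.002 over all genes. The log2 fold changes ran from -0.27 for *Mavs* to 0.40 for *Zbp1* and 0.39 for *Aim2*, which was -0.37 without day 7 replicate 2. The interval for *Dhx58* was -0.39 to 0.70 and that for *Zbp1* was -0.21 to 1.01, so that a difference within these intervals was not detectable.

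Day 7 against day 4 uses none of the libraries that grouped the genes. None of the 9 genes passed in edgeR, against 3.9% of all genes in either direction, and DESeq2 called 0; 2 genes (*Dhx58* and *Ifih1*) had an unadjusted p under 0.05. *Dhx58* differed by -0.66 (SE 0.27, adjusted p = 0.21) and *Ifih1* by -0.56 (SE 0.25, adjusted p = 0.25). The day 7 libraries lay below day 4 without overlap for 5 of 9 genes (*Dhx58*, *Ifih1*, *Ddx58*, *Tlr3* and *Mavs*), against 14% of all genes. The flat gene *Mavs* was thus among them (log2 fold change -0.38, adjusted p = 0.36), and *Eif2ak2* had a positive estimate (0.38, adjusted p = 0.51). The median over the 9 genes was -0.34, against 0.11 over all genes. In the same comparison all 14 thymocyte markers and 2 of 4 erythroid markers rose, and 2 of 7 TEC markers fell in edgeR (DESeq2 called 4), with summed TEC levels of 2525 to 3400 CPM at day 4 and 557 to 1034 CPM at day 7. The part of these differences in cells in the levels of the sensors was not tested.

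The other genes of nucleic acid sensing were examined as 6 lists with 78 tested genes. At day 1 edgeR called 15 of them, all higher, and DESeq2 called 22. Of all genes tested, edgeR called 1.68% higher at day 1. These lists were also chosen with earlier results of the data known. Their calls and adjusted p-values at day 1 are therefore a description, and not independent support for the response of the members. Among 18 tested sensors beside the members, 5 rose at day 1 and 0 fell: *Ddx60*, a helicase related to the RIG-I family (log2 fold change 2.16, edgeR adjusted p = 0.000328), and 4 genes of the *Ifi200* family of DNA-binding proteins, *Ifi204* (2.07), *Mndal* (1.96), *Ifi203* (1.75) and *Ifi205* (1.52), the last named after its value was seen. The *Ifi200* genes are near-identical in parts, so reads may be split between them. *Mb21d1*, the gene of the DNA sensor cGAS, had a log2 fold change of -0.48 (adjusted p = 0.64), and the endosomal receptor gene *Tlr7* was below 1 CPM on average in each group, while *Tlr9* was left out by the filter on low counts. Like *Aim2*, *Mb21d1* and *Tlr7* were not called at day 1, whereas *Tlr9* was not tested.

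Of 10 adaptors and cofactors, 4 rose and 0 fell at day 1. These were the Toll-like receptor adaptor *Myd88* (log2 fold change 1.2), the RIG-I ubiquitin ligase *Trim25* (1.01), the endosomal chaperone *Unc93b1* (1.00) and *Tmem173*, the gene of STING (0.90, edgeR adjusted p = 0.044). *Ticam1*, the adaptor of TLR3, had 0.35 (adjusted p = 0.48), and *Rnf135*, a second ligase of RIG-I, had 0.88 (adjusted p = 0.051) and was called by DESeq2, which called 5 of the 10. *Pycard*, the inflammasome adaptor of AIM2, had 0.64 (adjusted p = 0.32). The adaptors *Mavs* and *Ticam1* thus both missed the threshold, and whether adaptors differ from receptors was not tested.

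Of 20 kinases and factors downstream, 2 rose: the interferon regulatory factor *Irf7* (log2 fold change 3.17) and the necroptosis effector *Mlkl* (2.71). *Ripk3*, the kinase between ZBP1 and MLKL, had 1.33 (edgeR adjusted p = 0.053) and was called by DESeq2, which called 4 of the 20. The estimates of *Irf3* (-0.03) and *Tbk1* (0.30) did not pass. Of 16 tested genes that restrain sensing, 3 rose at day 1: *Usp18*, which dampens interferon signaling (2.65), the nucleotide hydrolase *Samhd1* (1.8) and the mitochondrial RNA exonuclease *Pnpt1* (1.3). DESeq2 called 4 of the 16, these 3 and *Tnfaip3*. The second editing enzyme gene, *Adarb1*, had a log2 fold change of -0.74 (adjusted p = 0.36), opposite in sign to *Adar*.

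Among 12 genes of the eIF2α kinases and the integrated stress response, 1 rose at day 1 in edgeR, *Sesn2* (log2 fold change 1.31, adjusted p = 0.015), and DESeq2 called 2, *Sesn2* and *Asns*, the latter named after its value was seen (1.24, edgeR adjusted p = 0.059). The kinase gene *Eif2ak3*, which encodes PERK, had 0.07 (adjusted p = 0.96), whereas *Eif2ak2* was among the induced genes. Of 21 interferon genes, 2 passed the filter. At day 1, 0 were called by edgeR or DESeq2, with 0 at an unadjusted p under 0.05. At day 7 both had lower estimates than at steady state, with an unadjusted p under 0.05 in edgeR, and DESeq2 called 1. These were *Ifnl2* (log2 fold change -5.19) and *Ifnl3* (-5.42), named after their values were seen. Their means were only 0.37 and 0.12 CPM at steady state, and 0.007 and 0 CPM at day 7. The steady-state libraries ranged from 0.05 to 1.03 CPM for *Ifnl2* and from 0 to 0.46 CPM for *Ifnl3*. Those of *Ifnl3* overlapped day 7. The summed level of the 21 interferon genes did not exceed 1.64 CPM in any library. *Ifnb1* had 0 to 7 counts at steady state and 1 count in each day 1 library. In none of these 6 lists did a gene pass in edgeR at day 4 or day 7 against steady state. At day 4, 16 had an unadjusted p under 0.05 in edgeR, and DESeq2 called 4 (*Mb21d1*, *Unc93b1*, *Irf7* and *Sesn2*). At day 7 these counts were 7 and 3 (*Pycard*, *Ifnl2* and *Atf3*). Over all genes, DESeq2 called 267 higher and 378 lower at day 4. At day 7 it called 699 lower, and no alternative called more than 568 higher. The share of all genes at an unadjusted p under 0.05 was not counted. These calls are therefore not read as a late response of the lists. At day 4 the median log2 fold changes were -0.21 for the other sensors and 0.41 for the adaptors, against -0.13 for all genes.

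**Figure D5:**
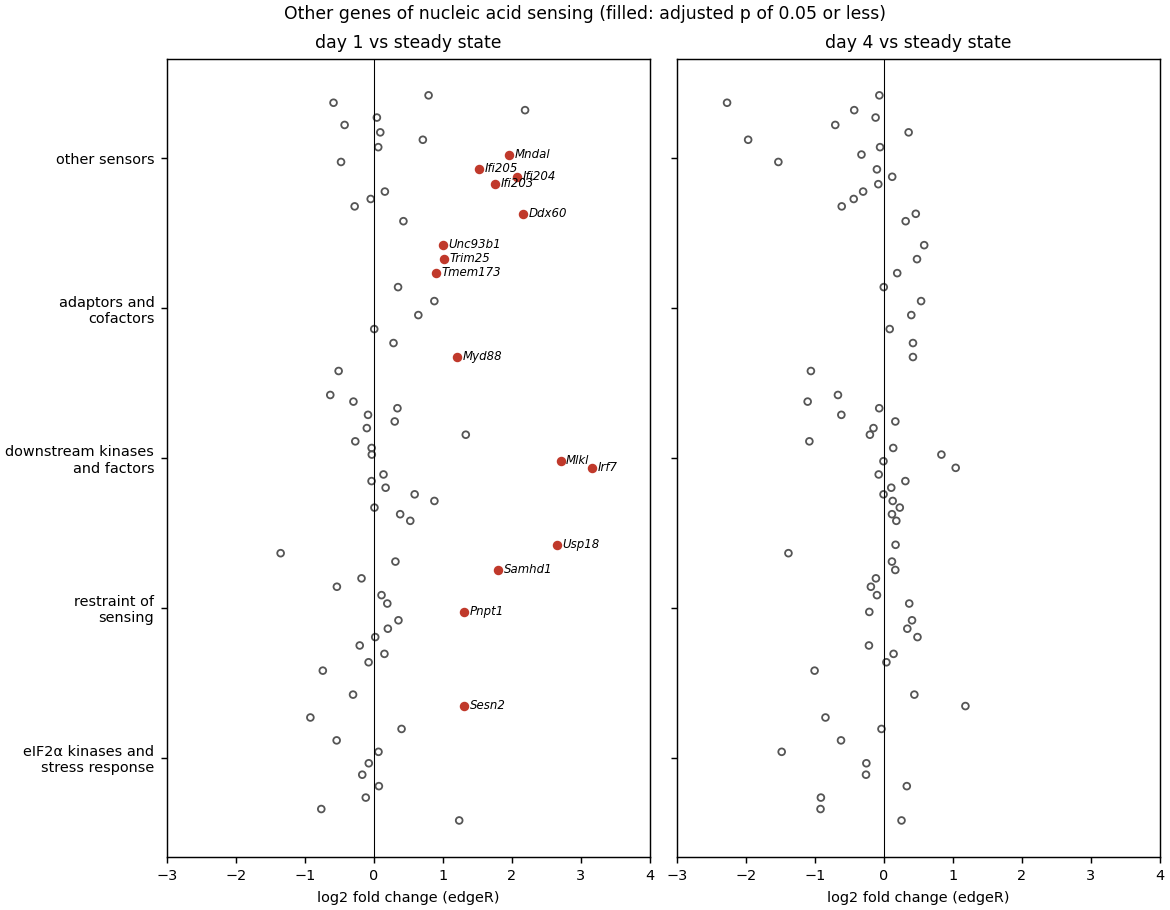
Log2 fold change (horizontal axis) of the other genes of nucleic acid sensing in 5 lists at day 1 and at day 4 against steady state; each point is a gene, and filled, named points have an adjusted p of 0.05 or less in edgeR. At day 1, 15 genes are filled, all of them higher, and at day 4 no point is filled.

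Over the 13 libraries, the genes most like a member were found by Pearson's correlation of log2 CPM, which rests mainly on the difference of day 1 from the rest for induced genes. The closest were *Gbp3* for *Ddx58* (r = 0.996), *Gm12250* for *Dhx58* (r = 0.991), *Dtx3l* for *Adar* (r = 0.990), *Isg15* for *Zbp1* (r = 0.987), *Trim21* for *Tlr3* (r = 0.984) and *Samd9l* for *Eif2ak2* (r = 0.977). *Mlkl* was also among the 3 closest to *Zbp1* (r = 0.984), and *Ddx60* and *Ifih1* among those closest to *Adar* (r = 0.981 and 0.980). For the flat genes the closest were *Dhx30* for *Aim2* (r = 0.910) and *Skap2* for *Mavs* (r = 0.897). All points share their libraries and their depth.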

How the data were processed

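Bulk polyA RNA-seq libraries of CD45- thymic cells were analyzed. Per the labels and methods, the authors used Trimmomatic 0.38 for trimming, STAR 2.7.0e for alignment (GRCm38.p5) and featureCounts 1.6.3 for counts per gene, and the deposited counts are whole numbers without normalization. Strand was not stated as used, and reads in overlapping exons may have been lost. Symbols, coordinates and exon overlaps came from GENCODE M21 (GRCm38), in which 53274 of 53379 identifiers had a symbol. The steady-state columns carry other replicate numbers than the labels and were used as a group.

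All 13 libraries entered 1 edgeR 4.0.16 fit in R 4.3.3 (TMM, filterByExpr, quasi-likelihood F-test, Benjamini-Hochberg over 19984 genes, threshold 0.05). The common dispersion was 0.177. Standard errors came from the log2 fold change and the square root of F, and 95% intervals from the t distribution. CPM errors are SDs. The steps were tested on simulated data. Alternatives were DESeq2 1.42.0, RLE, no filter, at least 10 counts in every library, only the groups compared, the tag family as a covariate, a replicate block and each library left out, and, added after seeing the data, single tag families.

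The members and gene lists were chosen with earlier results of these data known. All members were named; of other lists, genes called against steady state with at least 1 CPM, up to 4 per list, and classical partners of members; and the genes most like a member, from those with at least 5 CPM, of which 1 result is not reported here. Python 3.11.15 and matplotlib 3.10.9 were used for tables and plots. Single-cell and spatial data were not analysed here.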

Additional observations from a re-analysis of the deposited data

How the results depend on the processing

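The 7 induced genes passed and the 2 flat genes did not in all 21 alternatives at day 1, which reuse the libraries that grouped them. At day 4, DESeq2 called 1 member higher, *Dhx58* (log2 fold change 0.893), against 0 in edgeR and the other 19 alternatives. No member passed at day 7 against steady state or day 4 in any alternative. Some estimates near 0 changed sign. At day 1, *Mavs* was -0.21 to 0.016 over fits without 1 library and 0.089 in the family without a tag, where *Aim2* was -0.14. *Aim2* at day 4 was 0.051 with DESeq2, 0.054 with RLE, 0.080 with only the groups compared, 0.072 with the replicate block, and -0.16 to 0.24 without 1 library. At day 7 against steady state, leaving out 1 library gave -0.29 to 0.098 for *Eif2ak2*, -0.13 to 0.0079 for *Ddx58* and -0.37 to 0.71 for *Aim2*, which was lowest without day 7 replicate 2. From day 4 to day 7 it gave -0.40 to 0.096 for *Zbp1* and -0.46 to 0.74 for *Aim2*. The cause was not tested.

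Counts over all genes moved more: at day 1 from 166 to 986 higher and 36 to 621 lower (335 and 134 in the fit reported), at day 4 from 0 to 267 and 17 to 378 (10 and 48), at day 7 from 0 to 568 and 0 to 699 (1 and 0), and from day 4 to day 7 from 0 to 1272 and 0 to 885 (553 and 226). The replicate block, by number alone, gave 7 members at day 1 and 0 otherwise, with *Dhx58* at 3.43 at day 1. Same-numbered libraries of days 4 and 7 deviated together by a mean correlation of 0.076 (lowest -0.16), so that the numbers were not taken to pair them. Depth limits *Aim2* most, at 27 to 220 counts.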
